A study of Pan troglodytes with 38 samples.

Results

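The immediate early genes FOS, FOSB, FOSL2, JUN, JUNB, EGR1, EGR3, ATF3, NR4A1 and IER2 were followed across RNA-seq libraries from the hearts of 38 chimpanzees, 1 library per animal. These 10 genes were chosen by symbol. Of the 10, 9 had a row under their symbol in the counts of 31373 annotated chimpanzee genes, of which 18040 carry a symbol. JUN had none and was read from the counts of 44125 genes on exons orthologous between human and chimpanzee, where it is ENSG00000177606. The labels put all samples in 1 group, polyadenylated RNA from frozen post-mortem heart, with no treatment and no heart chamber named. The animals were born in captivity, and some are first-degree relatives. Per the study's text, part of them had lived in laboratories and been given hepatitis B or C virus, which was not used as a covariate here. The study's sample table gives the year of RNA extraction (2016 for 17 animals, 2018 for 21), sex (22 females, 16 males), the RNA integrity number (RIN, 2.5 to 8.4, lower in degraded RNA), the source center and, for 10 animals, a post-mortem time. In that table the 17 animals of 2016 are marked as published before and the 21 of 2018 are not, so year and set of libraries cannot be told apart. Human hearts were not analysed here.

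Immediate early genes are transcribed within minutes of a stimulus and need no new protein for it, because factors such as SRF, the ELK proteins and CREB already sit at their promoters and are switched on by kinases. Most of them encode transcription factors. FOS proteins pair with JUN proteins to form AP-1, which acts on later genes, and the mRNAs are short-lived. In heart muscle they are known to respond to stretch, ischemia and adrenergic stimulation.

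Levels are given in CPM, read counts scaled by the orthologous exon total of each library with TMM factors, which also depend on transcript length. The orthologous exon totals were between 14408012 in Little_R and 81603350 in 476. All 10 cardiomyocyte markers had counts in every animal, with sums between 12538 CPM in Little_R and 158334 CPM, so the heart label was met in each library. Mitochondrial transcripts took 17.2% to 60.1% of annotated gene counts. The library kit does not mark strand, so that reads from a gene and an antisense partner cannot be told apart. In bulk tissue, fewer cells of a type and less RNA per cell cannot be told apart.

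The FOS family varied widely between hearts. FOS (ENSPTRG00000047703), the founding FOS subunit of AP-1, was between 2.57 CPM in 554 and 447 CPM in 295, with a median of 9.22 CPM. FOSB (ENSPTRG00000046160), its close paralog, had the widest range of the set, from 0.109 CPM in 88A020 through a median of 1.25 CPM to 257 CPM in 529. The lowest FOSB count in any animal was 4 and the highest 14393, so the low end rests on few reads. For FOSB, 529, 295 (198 CPM) and Little_R (62.2 CPM) stood above 476 (18.5 CPM) and all others. FOSL2 (ENSPTRG00000049710), which encodes the subunit FRA2, was less variable, between 16.1 CPM in 503 and 280 CPM in 529 with a median of 47.0 CPM. Here 529 and Little_R (222 CPM) were again highest, while 295, at 68.5 CPM, was 10th.

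JUN had the narrowest range of the set. JUN, the main partner of FOS in AP-1, is a single-exon gene of 3542 bases at chr1:58566331-58569872 on the minus strand of Pan_tro_3.0. It was between 85.7 CPM in 4X0354 and 443 CPM in Little_R with a median of 191 CPM, a 5.16-fold range. Second was 295 at 416 CPM, and 529, at 196 CPM, was 19th of 38. JUNB (ENSPTRG00000029110), a weaker activator than JUN, was between 22.5 CPM in 4X0339 and 683 CPM in 529 with a median of 67.3 CPM. Little_R (509 CPM) and 295 (441 CPM) came next, above 570 at 265 CPM. ATF3 (ENSPTRG00000001962), a stress-induced factor that also pairs with JUN proteins, was between 6.23 CPM in 676 and 716 CPM in Little_R with a median of 20.99 CPM. Its second value was 636 CPM in 529, followed by 193 CPM in 476 and 189 CPM in 295.

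EGR1 and EGR3 encode zinc-finger factors. EGR1 (ENSPTRG00000045439) was between 4.78 CPM in 438 and 634 CPM in Little_R with a median of 31.01 CPM. In 295 and 529 it was 489 and 472 CPM, and the next animal, 522, had 171 CPM. EGR3 (ENSPTRG00000020067) was between 0.381 CPM in 503 and 141 CPM in 529 with a median of 2.48 CPM. For EGR3, 295 was at 78.1 CPM, while Little_R, at 16.1 CPM, was close to 4X0333 at 13.6 CPM. NR4A1 (ENSPTRG00000004966), an orphan nuclear receptor, was between 27.1 CPM in 4x0430 and 1928 CPM in Little_R with a median of 78.0 CPM. The values of 1624 CPM in 295 and 1376 CPM in 529 were also far above the fourth, 599 CPM in MD_And. IER2 (ENSPTRG00000049474), a small nuclear protein, was between 5.03 CPM in 88A020 and 62.5 CPM in Little_R with a median of 11.02 CPM, and 295 (58.5 CPM) and 529 (51.4 CPM) followed. Its range of 12.4-fold was the second narrowest.

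Levels can be set side by side between genes only per length, which is known for the members in the orthologous exon table. ATF3 has 5 exons of 4035 bases in all there, between 191518383 and 191574071 on chromosome 1 (plus strand), and NR4A1 has 12 exons of 6570 bases between 37782114 and 37818850 on chromosome 12 (minus strand). The median level per kilobase was 54.1 CPM for JUN, 8.82 CPM for NR4A1 and 5.27 CPM for ATF3. In their highest animals these genes reached 125, 198 and 178 CPM per kilobase, so that the median order did not hold at the top.

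**Figure D1:**
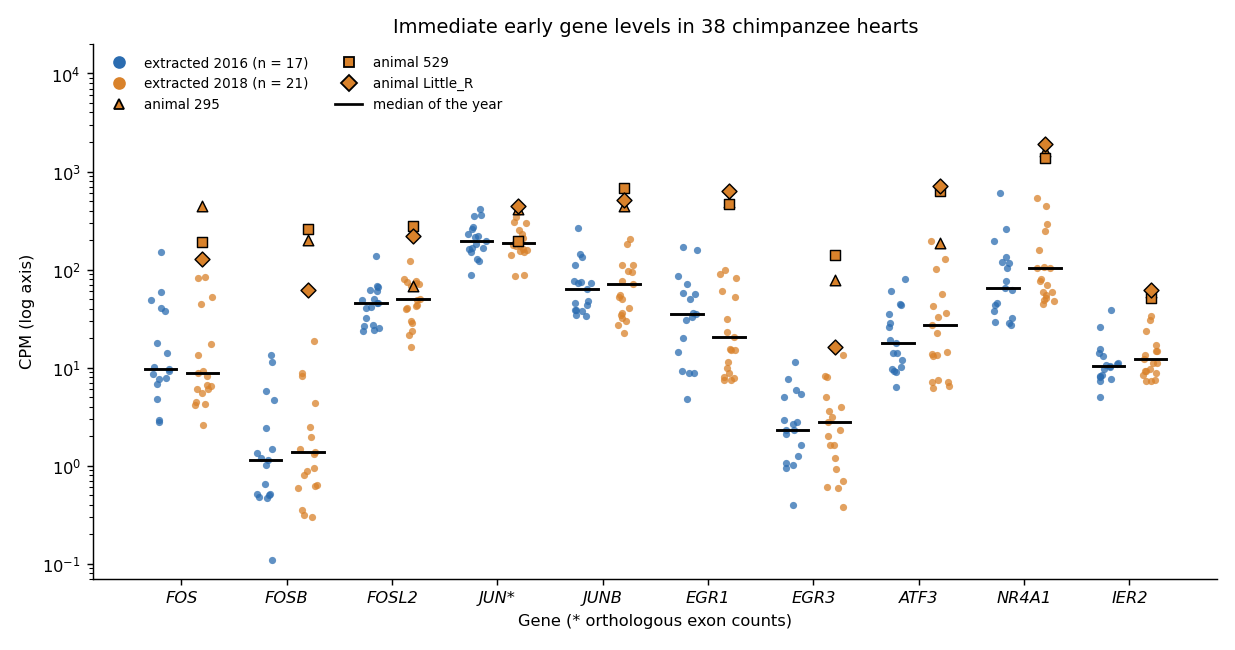
Levels of the immediate early genes in 38 chimpanzee hearts, in CPM on a log axis. Each point is an animal, coloured by extraction year (17 and 21 animals), black lines are the medians of each year, and outlined symbols mark 295, 529 and Little_R, which are at or near the top for most genes, while 529 is 19th for JUN and 295 is 10th for FOSL2.

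The same few hearts led most of the set. Among the 9 genes other than JUN, 529 was one of the 3 highest animals for 9, Little_R for 8 and 295 for 7, and 476, 549 and 570 each were for 1. These 3 hearts were singled out after their values were seen and are not tested as a group. Differences by year, r and dispersion without them are lowered in part by that choice. All 3 were extracted in 2018. They differed in sex (Little_R female, the others male), in RIN (7.3 in 295, 5 in 529, 7.8 in Little_R) and in mitochondrial share (32.7%, 52.7% and 48.35%). Little_R had the lowest cardiomyocyte marker sum and the highest fibroblast marker sum (9787 CPM), and 529 the highest erythrocyte (8494 CPM) and T and NK cell (365 CPM) marker sums. The part of these values in the levels was not tested.

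Other hearts were high for part of the set only. In 476, NR4A1 was 537 CPM and ATF3 193 CPM, while FOS, at 6.01 CPM, was below its median. MD_And had 599 CPM of NR4A1 and 8.54 CPM of FOS. The reverse was seen in 570, with 265 CPM of JUNB and 29.1 CPM of NR4A1. In 549, FOS, at 150 CPM, was the third highest of all animals, and FOSL2, at 32.02 CPM, was below its median.

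Over animals the members varied together. Of the 45 pairs, 40 had Pearson's r of log2(CPM + 0.5) of at least 0.5, against 7.55% of all pairs of the 15585 genes tested. The highest r was that of FOS with EGR1, 0.87 with Spearman's rho of 0.81. Both had p = 1e-05, the smallest that 100000 permutations can give, and adjusted over the 45 pairs 1.87e-05 for r and 5.62e-05 for rho. Without 295 and 529, the 2 animals farthest from the median of FOS, r was 0.83. JUNB with EGR1 had r of 0.86, FOSB with NR4A1 0.86, FOSB with ATF3 0.85 and FOS with JUNB 0.85. All 45 pairs passed for r, with the largest adjusted p of 0.00832 for JUN with EGR3 (r = 0.42). For rho 44 passed, and FOSL2 with IER2 did not (rho = 0.23, permutation p = 0.159 before and after adjustment). The pairs share animals and totals.

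The pairs were closer within 2018 than within 2016. The median r of the 45 pairs was 0.795 over the 21 animals of 2018 and 0.41 over the 17 of 2016, with 44 and 17 pairs at 0.5 or more, and this difference was not tested. In 2016 FOS with EGR1 still had r of 0.74, FOS with JUNB 0.73, JUNB with IER2 0.72 and FOSB with NR4A1 0.70, while FOSL2 with EGR3 had -0.12. Without 295, 529 and Little_R, 18 pairs reached 0.5, against 6.70% of all gene pairs, and r was positive for all 45. The closest of these were FOS with EGR1 (0.80), FOS with JUNB (0.76), FOSB with ATF3 (0.745), JUNB with EGR1 (0.74) and FOSB with NR4A1 (0.71). Other pairs had lower r, such as 0.285 for JUNB with NR4A1 and 0.16 for NR4A1 with IER2.

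**Figure D2:**
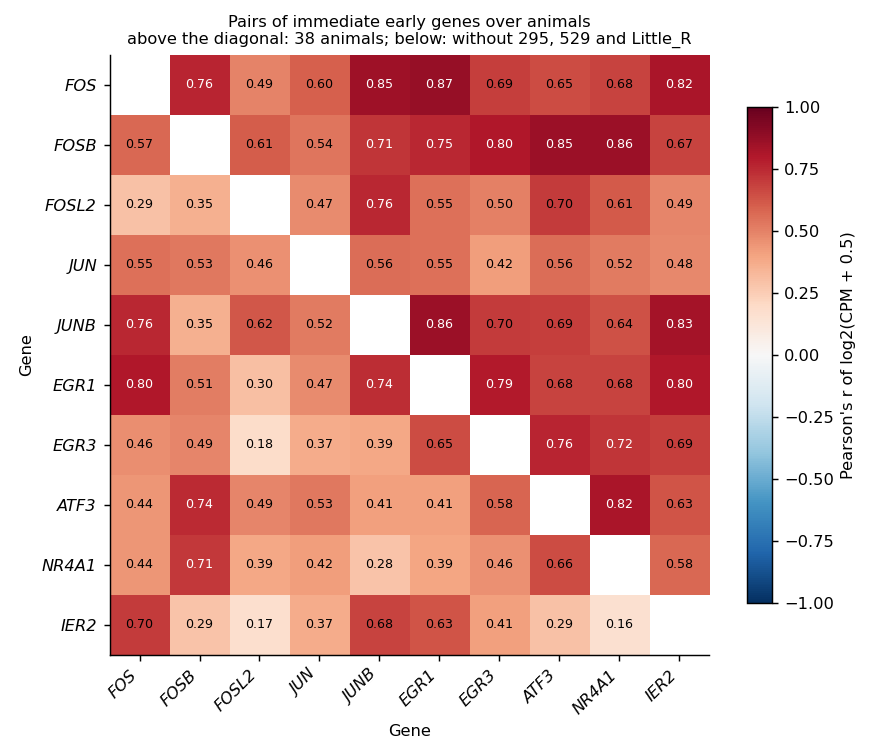
Pearson's r of log2(CPM + 0.5) for each pair of immediate early genes (genes on both axes, colour from -1 to 1). Above the diagonal are values over 38 animals, from 0.42 to 0.87, and below it values without 295, 529 and Little_R, where the pairs of FOS, JUNB and EGR1 had 0.74 or more.

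FOSB, ATF3 and NR4A1 were higher in hearts extracted in 2018, by edgeR's quasi-likelihood test with sex as a covariate and Benjamini-Hochberg adjustment over 15585 genes. These are 3 of 9 members, and 16% of all genes were called, 11.3% as higher in 2018. FOSB was 0.109 to 13.4 CPM (median 1.15) in 2016 and 0.296 to 257 CPM (median 1.37) in 2018, a fitted log2 difference of 3.14 ± 0.82 (SE, adjusted p = 0.0067). ATF3 was 6.37 to 79.4 CPM (median 17.8) in 2016 and 6.23 to 716 CPM (median 27.3) in 2018, with 2.11 ± 0.61 (adjusted p = 0.0139). NR4A1 was 27.1 to 599 CPM (median 65.1) in 2016 and 44.8 to 1928 CPM (median 103) in 2018, with 1.83 ± 0.56 (adjusted p = 0.0204). The years overlapped for each of the 3, and their medians lay much closer than the fitted differences.

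The other members did not pass for year. Their fitted differences were 1.54 for EGR3, 1.07 for FOS, 1.01 for EGR1, 0.77 for JUNB, 0.64 for IER2 and 0.58 for FOSL2, with adjusted p from 0.0896 to 0.253. The median of EGR1 was 35.5 CPM in 2016 and 20.4 CPM in 2018, and that of FOS 9.63 and 8.82 CPM, opposite to the fitted differences. JUN had 0.08 ± 0.20 (adjusted p = 0.815) in the fit of 16547 orthologous exon genes, of which 19.7% were called.

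The calls for year depended on the 3 hearts that led the set. They were picked for high values of these same genes and all are of 2018, so smaller differences without them follow from that choice. Without 295, 529 and Little_R, 0 of 9 members passed in edgeR and 0 at an unadjusted p under 0.05, while 14.7% of all genes were still called, 10.4% as higher in 2018. The differences were then 0.66 for FOSB (adjusted p = 0.494), 0.71 for ATF3 (adjusted p = 0.311) and 0.54 for NR4A1 (adjusted p = 0.462), and that of EGR1 was -0.61. With 1 animal left out at a time, FOSB and NR4A1 passed in 38 of 38 fits and ATF3 in 36. ATF3 was lost without 529 (adjusted p = 0.0523) or Little_R (adjusted p = 0.0541), EGR3 passed without 4x0025 (adjusted p = 0.0217), and IER2 without 549 (adjusted p = 0.0485). With limma-voom 1837 of 15585 genes were called and 4477 had an unadjusted p under 0.05. Of the members 0 passed in limma-voom and 1, NR4A1, had an unadjusted p under 0.05 (adjusted p = 0.162). In edgeR on the 21 Yerkes animals alone, 218 of 15477 genes were called and 2493 had an unadjusted p under 0.05. Of the members 0 passed in that fit and 4 had an unadjusted p under 0.05. In the Yerkes animals the differences were 2.80 for FOSB, 2.41 for ATF3 and 1.85 for NR4A1, near those over all animals. Both 295 and 529 are Yerkes animals and stayed in that fit.

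On RIN, with sex and year as terms, no gene passed in edgeR (0 of 15585, with 2208 at an unadjusted p under 0.05). The slopes of the 9 members were all positive, from 0.09 for FOSL2 to 0.63 for EGR1 in log2 units per RIN unit, with a median of 0.37 beside 0.003 over all genes. At an unadjusted p under 0.05 were 5 of 9, against 7.45% of all genes with a positive slope and 14.2% in either direction. FOS had a slope of 0.57 ± 0.18 (SE, unadjusted p = 0.0030, adjusted p = 0.149) and EGR1 0.63 ± 0.20 (unadjusted p = 0.0033, adjusted p = 0.1499). IER2 had 0.24, JUNB 0.32 and NR4A1 0.37. JUN had 0.10 ± 0.06 (adjusted p = 0.503). DESeq2 called FOS (adjusted p = 0.0482) and EGR1 (adjusted p = 0.0357), with 1.19% of all genes, and limma-voom called 0 genes. Without the 3 hearts the slopes of FOS and EGR1 were 0.36 and 0.30.

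The slopes on RIN differed in sign between years for part of the set. In 2018 alone (RIN 2.5 to 8.4) all 9 were positive, from 0.13 for FOSL2 to 1.07 for FOSB. In 2016 alone (RIN 4.2 to 7.6) the slope was -0.73 for FOSB, -0.47 for ATF3, -0.45 for NR4A1, -0.32 for EGR3 and -0.02 for EGR1, and 0.35 for JUNB. The difference of slopes, tested as an interaction in edgeR, passed for 0 of 15585 genes, 970 of which had an unadjusted p under 0.05, and limma-voom also called 0. NR4A1 (1.10, unadjusted p = 0.0036), ATF3 (1.33, unadjusted p = 0.0038), FOSB (1.77, unadjusted p = 0.0080) and EGR3 (1.18, unadjusted p = 0.0335) were among those with the larger slope in 2018, which are 4.31% of all genes, 6.22% in either direction. Their adjusted p-values were between 0.642 and 0.762. Without the 3 hearts the same genes had 0.72, 1.005, 1.28 and 0.85.

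**Figure D3:**
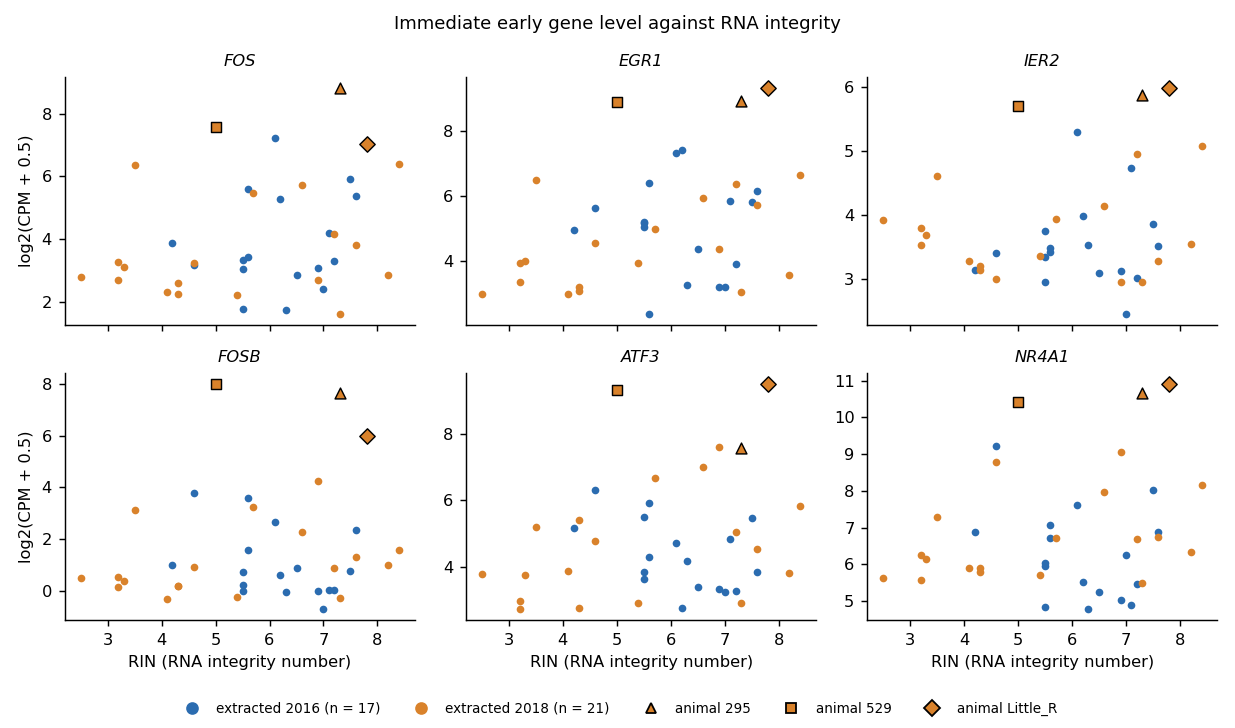
Level of 6 immediate early genes as log2(CPM + 0.5) against RIN, coloured by extraction year, with 295, 529 and Little_R outlined. For FOSB, ATF3 and NR4A1 the fitted slopes were 1.07, 0.88 and 0.64 per RIN unit in 2018 and -0.73, -0.47 and -0.45 in 2016.

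A post-mortem time of 0 min was recorded for 5 animals (462, 476, 522, 623, 4x0025) and of 30 to 150 min for 5 others (295, 317, 549, 4x0043, 4x0519). The first set held 4 females and 1 male and the second 1 female and 4 males, so that time and sex were largely confounded. FOS was 14.2, 40.6, 59.5, 150 and 447 CPM in animals with a time over 0, and 6.01, 6.78, 7.70, 7.89 and 38.2 CPM in those at 0. The sets overlapped only through 522, at 38.2 CPM. JUNB was 73.2, 75.9, 135, 143 and 441 CPM over 0 and 38.1, 47.8, 52.1, 63.9 and 72.3 CPM at 0. JUNB did not overlap, which was so in this direction for 0.744% of all genes. JUN was 229 to 416 CPM over 0 and 88.8 to 345 CPM at 0, and overlapped through 476.

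In exact two-sided permutation tests the difference of mean log2(CPM + 0.5) was 2.85 for FOS (exact p = 0.0159), 1.34 for JUNB (exact p = 0.00794, the smallest that 5 against 5 allows) and 1.01 for JUN (exact p = 0.0238), of 10 genes compared and without adjustment. The other 7 had exact p from 0.0873 for NR4A1 to 0.587 for FOSL2. FOSL2 was 26.7 to 68.5 CPM over 0 and 24.3 to 67.3 CPM at 0. Adjusted over all genes none of these passed: edgeR called 0 of 15280 genes, 1201 of them (7.86%) had an unadjusted p under 0.05 and 5.36% were so with the higher level over 0, and limma-voom called 0. FOS had a fitted log2 difference of 3.44 ± 0.92 (SE, unadjusted p = 0.0032, adjusted p = 0.524), JUNB 1.68 ± 0.47 (unadjusted p = 0.0040, adjusted p = 0.527) and IER2 1.35 ± 0.52 (unadjusted p = 0.0242, adjusted p = 0.584). DESeq2 called 0.538% of genes, FOS (adjusted p = 0.0395) and JUNB (adjusted p = 0.043) included, and gave no p for FOSB, EGR3 and NR4A1.

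Single animals decided the post-mortem values of several members. Of the 10 animals, 295 and 476 were extracted in 2018 and the other 8 in 2016. In edgeR without 295 the differences were 2.31 for FOS and 0.96 for JUNB, and those of FOSB, ATF3 and NR4A1 were -0.48, -0.83 and 0.34. Without 476 they were 5.43 for FOSB, 1.83 for ATF3 and 3.71 for NR4A1, none past adjustment. With sex as a covariate, added after seeing the data, the differences were 2.21 ± 1.83 for FOS (unadjusted p = 0.254) and 1.22 ± 0.69 for JUNB (unadjusted p = 0.107), and 0 of 9 members had an unadjusted p under 0.05. The exact permutation tests do not take sex into account. In the 8 animals of 2016, NR4A1 had 2.29 ± 0.29 (SE, edgeR, unadjusted p = 1.97e-05, adjusted p = 0.3002), JUNB 0.97 and FOS 2.16.

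**Figure D4:**
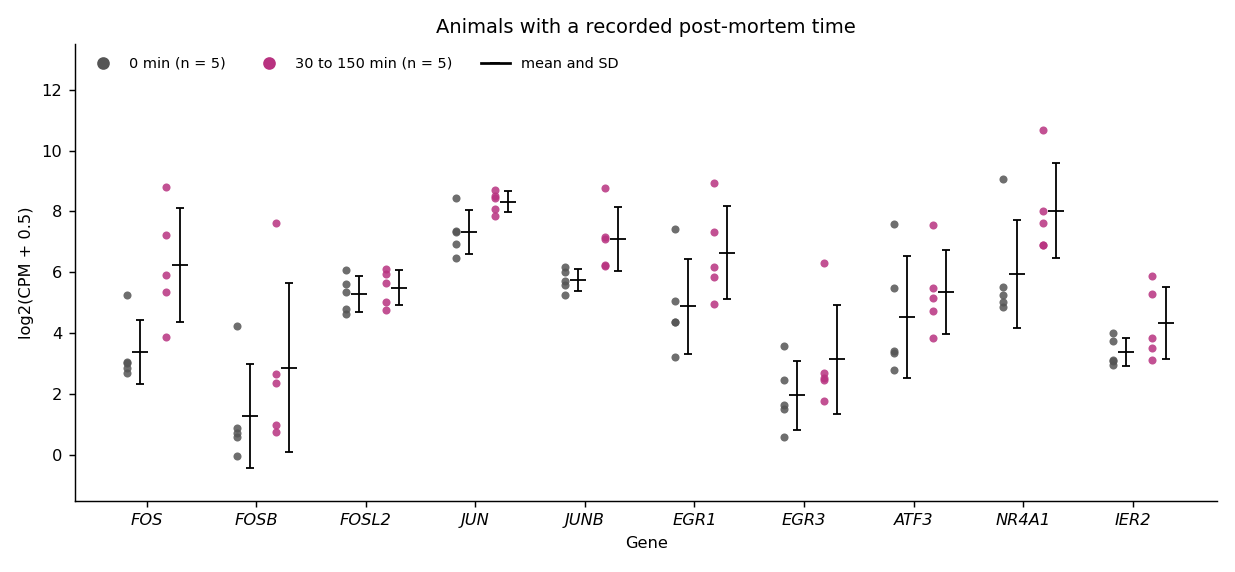
Levels of the immediate early genes as log2(CPM + 0.5) in 5 animals with a recorded post-mortem time of 0 min and 5 with 30 to 150 min, with mean and SD beside the points. JUNB does not overlap between the sets, FOS overlaps through 522, and FOSL2 differed by 0.20 in mean.

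Between sexes 0 of 9 members passed in edgeR, where 0.225% of all genes did and 1293 (8.30%) had an unadjusted p under 0.05, 5.52% with the higher level in males. The fitted differences, male against female, were positive for all 9. At an unadjusted p under 0.05 were FOSB (2.65, unadjusted p = 0.0011, adjusted p = 0.172), FOS (1.83, unadjusted p = 0.0026, adjusted p = 0.245) and EGR3 (1.76, unadjusted p = 0.0065, adjusted p = 0.344). FOS was 2.57 to 129 CPM (median 8.26) in females and 2.94 to 447 CPM (median 29.01) in males. Without 537 and Little_R, which the study treats as outliers, FOSB passed (3.58, edgeR adjusted p = 0.0146), as did 39 of 15459 genes in all. Little_R was the highest female for FOSB, at 62.2 CPM, while the highest males, 529 and 295, stayed in that fit. Leaving out 295, 529 and Little_R, FOSB had 1.37 (adjusted p = 0.392).

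Dispersion, the study's measure of variability, is the natural logarithm of a gene's overdispersion in a negative binomial model less the trend at its mean level. FOSB had 3.22 ± 0.62 (SE over animals) and rank 31 of 12983 genes. ATF3 had 2.87 ± 0.27 (rank 56), FOS 2.86 ± 0.24 (rank 58) and EGR1 2.79 ± 0.19 (rank 67). These 4 genes led the set. NR4A1 had 2.55 ± 0.18 (rank 106), EGR3 2.39 ± 0.66 (rank 135) and JUNB 2.10 ± 0.24 (rank 234). FOSL2 (1.51 ± 0.31, rank 745) and IER2 (1.25 ± 0.29, rank 1161) were lower, and JUN, against the trend of the orthologous exon genes, had 0.49 ± 0.19 and rank 3360 of 12733. The median of the 9 was 2.55 beside -0.13 over all genes, and 7 of the 9 were in the top 5% of genes.

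Part of this came with the 3 hearts, which were picked as the members' own extremes, so lower dispersion without them follows from the choice. Other genes were not trimmed at their own extremes, so the ranks without the 3 are not like for like. Without 295, 529 and Little_R, FOS had 2.48 (rank 115 of 12731), EGR1 2.35, ATF3 2.30, NR4A1 2.17 and JUNB 1.602. FOSB had 1.24 (rank 1139), EGR3 0.76 (rank 2340) and IER2 0.71 (rank 2541). The first 5 of these moved less than FOSB and EGR3. Within 2016 FOS had 2.97, EGR1 2.81 and NR4A1 2.70, and FOSB 1.33.

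Fibroblast markers moved with most members. Their sum (7 genes, all counted in every animal) was 1410 to 4462 CPM in 2016 and 623 to 9787 CPM in 2018, with 2120 CPM in 295 and 5829 CPM in 529. Its r with log2(CPM + 0.5) passed for 8 of 9 members, adjusted over 150 relations of 10 genes with 15 measures, and its rho for 4. The lowest r of the 9, 0.33, was reached by 23.2% of all genes. For this and the other measures, the share of all genes that would pass was not computed. For EGR1, r was 0.72 and rho 0.73 (permutation p = 1e-05 each, the smallest possible, adjusted 0.0015 and 0.001). It was 0.81 in 2018 and 0.48 in 2016, and 0.67 without the 2 animals farthest from the median of the marker sum. For FOS, r was 0.64 and rho 0.655 (permutation p = 2e-05 and 3e-05, adjusted 0.0015 and 0.00112), with 0.68 in 2018 and 0.64 in 2016. FOSL2 had r of 0.33 and did not pass. The median r of the 9 with fibroblast markers was 0.68 in 2018 and 0.35 in 2016, where FOSL2 had -0.23. Without 295, 529 and Little_R this median was 0.44, with 0.665 for EGR1 and 0.61 for FOS. It was lower for FOSB (0.27), ATF3 (0.23), NR4A1 (0.21) and FOSL2 (0.01). Over all measures 22 relations passed by r, 7 did without 537 and Little_R, and 10 without 295, 529 and Little_R.

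Cardiomyocyte markers moved the other way. Their sum was 57806 to 158334 CPM in 2016 and 12538 to 150742 CPM in 2018, with 53168 CPM in 529. Its r was negative for all 9 members and passed for IER2 (-0.65), JUNB (-0.64), FOSL2 (-0.53) and EGR1 (-0.50). Its rho passed for IER2 and JUNB only. An r of -0.65, the most negative of the 9, or higher was found for 90.5% of all genes, and the rest were more negative. The share of all genes at or below the weakest r of the 9, -0.30, was not computed. B and plasma cell markers (5 genes, 2 at 0 in some animals) summed to 1.72 to 857 CPM in 2016 and 2.46 to 794 CPM in 2018, the latter in 529. Their r passed for FOS, FOSB, JUNB, EGR3 and ATF3, with FOS highest at 0.55, and their rho for FOS only. The lowest r of the 9, 0.31, was reached by 11.9% of all genes. By r, smooth muscle cell and pericyte markers (470 to 2341 CPM) passed for FOS, EGR1 and IER2, neutrophil markers (3.84 to 643 CPM, 5 of 6 with a row) for FOSL2, and the mitochondrial share for IER2 (r = 0.51). By rho the first passed for FOS and EGR1, and the other 2 measures for 0 members. The lowest r of the 9 with smooth muscle cell and pericyte markers, 0.06, was reached by 45% of all genes. For IER2 with the mitochondrial share, r was 0.655 in 2018 and -0.245 in 2016. Macrophage (34.7 to 780 CPM), T and NK cell (4.998 to 365 CPM), endothelial (946 to 3829 CPM), erythrocyte (1.01 to 8494 CPM), adipocyte (112 to 1486 CPM), Schwann cell (67.7 to 488 CPM) and atrial (68.6 to 37923 CPM) markers, the orthologous exon total and RIN passed for 0 members in these permutation tests. No list was at 0 throughout, and JUN passed for no measure. The part of cell makeup in the members' levels was not tested.

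Among paralogs, NR4A2, a nuclear receptor close to NR4A1, was 2.74 to 289 CPM, highest in 529, and was higher in 2018 (1.79 ± 0.50, edgeR adjusted p = 0.0105). NR4A3 was highest in 4X0212, at 211.6 CPM, with a difference of 1.22 (adjusted p = 0.143). EGR2 was 0.170 to 43.4 CPM, highest in 295, with 1.22 (adjusted p = 0.125). JUND was 36.6 to 762 CPM, highest in 529, with 0.60 (adjusted p = 0.0815). FOSL1 was 0.125 to 33.01 CPM, also highest in 529, with 0.21 (adjusted p = 0.892). EGR4 had a count of 0 in 24 animals and was not tested. Their median r with the 9 members was 0.73 for EGR2, 0.67 for NR4A2, 0.60 for JUND, 0.595 for FOSL1 and 0.48 for NR4A3. With the 3 leading hearts left out these were 0.45, 0.35, 0.34, 0.32 and 0.21.

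The genes most like the members, by the median of r with the 9 over 38 animals, were CCN1 (0.76), THBS1 (0.75), ANKRD37 (0.74), SLC25A25 (0.73), EGR2 (0.73), ZFP36 (0.72), HES1 (0.72), DUSP5 (0.72), LIF (0.71) and SNAI1 (0.71). CCN1 and THBS1 encode matricellular proteins, ZFP36 a protein that promotes mRNA decay, and DUSP5 a dual-specificity phosphatase. A median r of 0.5 or more was found for 2.77% of all genes. Without 295, 529 and Little_R it was between 0.39 for DUSP5 and 0.66 for CCN1.

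Other immediate early genes were read in lists. Of 19 other immediate early transcription factors tested, 4 were higher in 2018 and 0 lower in edgeR, with a median difference of 0.65, and KLF2, a factor induced by blood flow in endothelium, had the smallest p (1.07 ± 0.24, adjusted p = 0.00177). Of 11 other AP-1 subunits, 3 were higher and 0 lower (median 0.37), MAFF (1.63, adjusted p = 0.0259) and JDP2 (0.997, adjusted p = 0.0413) among them. Of 30 other immediate early genes that encode no transcription factor, 0 passed in edgeR and 6 had an unadjusted p under 0.05 (median 0.43), with PLK3 (0.82, adjusted p = 0.0564) and GADD45G (0.60, adjusted p = 0.0596) first. The median over all genes was -0.005. Of all genes 11.3% passed as higher in 2018, and 18.2% were higher at an unadjusted p under 0.05. Leaving out 295, 529 and Little_R, 1 of the 19 transcription factors was higher in 2018, and of the 11 AP-1 subunits 0 were higher and 1 lower. Of all genes 10.4% were then higher, and 666 of 15422 lower. In these lists (transcription factors, AP-1 subunits, others) 8, 4 and 18 genes had a median r of 0.5 or more with the members, and 1, 1 and 6 did without the 3 hearts. Of all genes 2.77% did, and 0.50% without the 3 hearts.

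Of 25 upstream kinases and transcription factors tested, 0 were higher in 2018 and 3 lower, with a median of -0.17, while 4.74% of all genes were lower. With the 3 leading hearts left out 4 were lower, beside 666 of 15422 genes. RPS6KA2, a ribosomal S6 kinase, had -0.46 ± 0.12 (adjusted p = 0.00478). None had a median r of 0.5 or more with the members, and MRTFA had the highest, 0.43. Their median dispersion was -0.32.

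Heat shock and early cytokine genes served for comparison. Of 15 heat shock genes 6 were higher in 2018 (median 1.12), such as HSPA1B (2.81, adjusted p = 0.00717) and HSPA1L (2.64, adjusted p = 0.0074), against 11.3% of all genes, and 4 had a median r of 0.5 or more with the members. Little_R stood far above the other hearts for several of these, with 62050 CPM of HSPA1B (median 407), 22500 CPM of DNAJB1 (median 61.5) and 13450 CPM of HSPH1 (median 87.1), the last 2 named after their values were seen. Leaving out the 3 leading hearts, 2 of 15 were higher in 2018 (median 0.14), against 10.4% of all genes. Of 15 early cytokine and NF-kB response genes 3 were higher (median 0.42), such as NFKBIZ (1.81, adjusted p = 0.00272) and CXCL3 (2.56, adjusted p = 0.00402), and 8 reached that r. Without the 3 hearts 2 of these 15 were higher and 2 lower, and 0 genes of either list reached that r, with LIF (0.4995) the closest. Of all genes 0.50% reached it without the 3 hearts. Median dispersion was 1.94 and 1.69.

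On RIN none of these genes passed in edgeR, 0 by limma-voom. At an unadjusted p under 0.05 with a positive slope were 10 of 15 heat shock genes, 9 of 30 immediate early genes without a transcription factor, 5 of 19 transcription factors, 4 of 15 cytokine genes, 3 of 11 AP-1 subunits and 3 of 25 upstream genes. Of all genes 7.45% were so. The smallest p in their lists were those of HSPH1 (0.76) and DNAJA1 (0.39), DUSP1 (0.32) and IER5 (0.30), HES1 (0.26) and EGR2 (0.50), ICAM1 (0.38) and NFKBIZ (0.30), MAFF (0.39) and JDP2 (0.22), and ATF1 (0.12) and RPS6KA3 (0.17), in log2 units per RIN unit. Their adjusted p-values were between 0.132 and 0.321.

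For post-mortem time and for sex none of these list genes passed in edgeR either. With a time over 0, 11 of 30 immediate early genes without a transcription factor, 3 of 19 transcription factors, 2 of 11 AP-1 subunits, 0 of 25 upstream genes, 3 of 15 heat shock genes and 1 of 14 cytokine genes had the higher level at an unadjusted p under 0.05, against 5.36% of all genes. In males this was so for 9 of 30, 6 of 19, 0 of 11, 1 of 25, 0 of 15 and 1 of 15, against 5.52%. For the difference in RIN slope, 8 of 15 heat shock genes and 4 of 30 immediate early genes without a transcription factor had the larger slope in 2018 at an unadjusted p under 0.05, and 0 of 15 cytokine genes. Of all genes 4.31% did.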

How the data were processed

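Heart RNA-seq of 38 chimpanzees was used. The authors deposited counts per annotated gene (STAR 2.6.1b, per the submitters' processing notes) and, per the file headers, counts from featureCounts 1.6.3 on orthologous exons (Pan_tro_3.0). They also deposited a normalized score for 13545 genes and 37 animals, used only to check that the 9 members were in it. Another 52 per-sample columns match no sample here and were not used. Covariates came from the study's sample table, and the symbol of JUN from its gene table.

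Counts were scaled by TMM on orthologous exon totals (14408012 to 81603350). Fits used edgeR 4.0.16 (filterByExpr, quasi-likelihood test), with DESeq2 1.42.0 and limma 3.58.1 as alternatives, in R 4.3.3, and Benjamini-Hochberg adjustment over all genes tested (threshold 0.05). Correlations used log2(CPM + 0.5) and 100000 permutations of animals. Dispersion used genes with 6 CPM or more in at least 1 animal, LOESS of degree 1 and span 0.75, and a standard error from 1000 resamples of the animals (Python 3.11.15). The edgeR fits for year and RIN and the overdispersion estimates were tested on simulated data, and the other steps were not.

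The members and lists were chosen with earlier results of these data known. Genes named were the members, 6 paralogs, the 2 genes of each list with the smallest p for year and for RIN, and the 10 most like the members. One gene named by this rule is not reported here. p-values measure the spread between animals, some of which are related. Alternatives were other scalings, filters, tools, covariates and sets of animals.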

Additional observations from a re-analysis of the deposited data

Results flagged for a closer look

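Among the 20 sets of 5 animals by recorded post-mortem time (10 genes, times of 0 and over 0), 5 held an animal far from the others by Dixon's criterion on log2(CPM + 0.5). Chance flags about 1 in 20 independent sets. These sets hold the same 10 animals read on genes that vary together, so no excess over chance can be read from the count. At a time of 0, FOS was 38.2 CPM in 522 and 7.89 CPM in the next animal. At a time of 0, 476 had 18.5 CPM of FOSB, with 1.36 CPM in the next animal, and 537 CPM of NR4A1, with 45.7 CPM in the next. With a time over 0, 295 had 198 CPM of FOSB, with 5.77 CPM in the next animal, and 78.1 CPM of EGR3, with 5.95 CPM in the next. The causes were not tested.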

How the results depend on the processing

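For extraction year, 3 members passed with DESeq2, both scalings without TMM, no filter and RIN as a covariate, and 2 without 537 and Little_R. The count was 0 with limma-voom, 0 in the Yerkes animals alone, 0 without 295, 529 and Little_R, and 2 to 4 with 1 animal left out. Of all genes limma-voom called 1837 of 15585, and the Yerkes fit 218 of 15477. In the 21 Yerkes animals, 295 and 529 included, the differences of FOSB, ATF3 and NR4A1 were 2.80, 2.41 and 1.85. Over all animals they were 3.14, 2.11 and 1.83, and without the 3 hearts 0.66, 0.71 and 0.54. Scaling to the total of annotated gene counts moved the median of all genes by -0.20 (log2) and split the calls into 803 higher and 1459 lower, against 1759 and 738. DESeq2 called 2 members for RIN and 2 for post-mortem time. In edgeR the count was 0 for both, and stayed 0 with 1 animal left out. DESeq2 was not refitted with an animal left out. For sex, 1 member passed without 537 and Little_R, a fit that called 39 of 15459 genes. Of 40 pairs with r of 0.5 or more, 17 were counted in 2016 alone and 18 without 295, 529 and Little_R. Of 22 relations to markers and technical values that passed by r, the count was 7 without 537 and Little_R and 10 without 295, 529 and Little_R. Leaving out 295, 529 and Little_R, and sex as a covariate for post-mortem time (0 members), were chosen after seeing the data. The 3 animals were picked for the members' own high values, so falls without them follow in part from that choice. The causes were not tested.

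Signs reversed, with no call, in these fits. For year, EGR1 was -0.09 with limma-voom, -0.10 in the Yerkes animals and -0.61 without the 3 animals, where FOS was -0.02, JUNB -0.07 and JUN -0.05. For RIN, FOSL2 was -0.16 in the Yerkes animals, and in 2016 alone FOSB was -0.73, ATF3 -0.47, NR4A1 -0.45, EGR3 -0.32 and EGR1 -0.02. For sex, FOSL2 was -0.16 without the 3 animals. For post-mortem time, FOSB was -0.48 and ATF3 -0.83 without 295, and ATF3 was -0.03 without 462, -0.05 without 522 and -0.03 without 623. For the difference in RIN slope, FOSL2 was -0.01 without 537 and Little_R and -2.9e-05 without the 3 animals, and JUNB was 0.0024 with limma-voom. No paired analysis was possible because each animal gave 1 library.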
